A study of Mus musculus with 24 samples.

Results

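The 8 genes described here encode ligands and receptors that take part in contacts between macrophages and T cells. They were chosen by symbol from 56884 genes in the count table. They are *Pdcd1lg2* and *Cd274*, encoding the PD-1 ligands PD-L2 and PD-L1, *Cd80* and *Cd86*, encoding the ligands of CD28 and CTLA-4, *Cd40*, *Icosl*, *Vsir* (VISTA) and *Havcr2* (TIM-3). All 8 were among the 13679 genes with enough reads to be tested.

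RNA-seq was performed on bone marrow–derived macrophages (BMDM), which were differentiated in M-CSF from the marrow of 4 wild-type C57BL/6J female mice aged 9 weeks. Each mouse, numbered 1, 2, 4 or 5 in the labels, gave 1 library to each of 6 groups, so that the 24 libraries form 4 complete sets. Naive BMDM received no cytokine for 24 hours, and the other 5 groups all received IL-4 and IL-13 for 24 hours, each at 20 ng/ml. Of these, 1 group received the cytokines alone, and the labels name no vehicle for it. The other 4 were also given an inhibitor, starting 1 hour before the cytokines: tunicamycin (5 μg/ml), which blocks N-glycosylation and causes endoplasmic reticulum stress, Sal003 (10 μM), which inhibits the dephosphorylation of eIF2α, or oligomycin (1 μM), which inhibits the mitochondrial ATP synthase. There were 2 oligomycin groups, and 1 of them also received ISRIB (1 μM), which relieves the block of translation that follows eIF2α phosphorylation. For these the labels contradict each other. The libraries titled as oligomycin with ISRIB carry library names without it, and the libraries titled as oligomycin alone carry library names that refer to ISRIB. They are therefore called oligomycin set A (ISRIB by title, not by library name) and set B (ISRIB by library name, not by title), and no effect is attributed to ISRIB.

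PD-1 is a receptor that restrains activated T cells, and both of its ligands can be displayed by macrophages. PD-L1 is widely inducible by interferons and inflammatory signals, whereas PD-L2 is more restricted to myeloid cells and is a known target of IL-4 and its transcription factor STAT6. CD80 and CD86 provide the costimulatory signal through CD28, or an inhibitory one through CTLA-4, and CD40, ICOSL, VISTA and TIM-3 add further stimulatory or inhibitory contacts.

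The PD-1 ligand genes lie side by side on the forward strand of chromosome 19 (GRCm39). *Cd274* (ENSMUSG00000016496) spans positions 29344529 to 29365495, and *Pdcd1lg2* (ENSMUSG00000016498) spans 29388319 to 29448882, with 22823 bases between them. The 250 bases before the start of each canonical transcript (GENCODE M39) are printed because the pair of neighbours responded so differently to the cytokines and to tunicamycin. Both are read from the GRCm39 genome on the forward strand, 5′ to 3′, the *Pdcd1lg2* window at chr19:29388069-29388318 and the *Cd274* window at chr19:29344279-29344528. The *Cd274* window lies within the span of *Plgrkt* on the opposite strand. Capitals mark motif matches found on either strand.
Pdcd1lg2: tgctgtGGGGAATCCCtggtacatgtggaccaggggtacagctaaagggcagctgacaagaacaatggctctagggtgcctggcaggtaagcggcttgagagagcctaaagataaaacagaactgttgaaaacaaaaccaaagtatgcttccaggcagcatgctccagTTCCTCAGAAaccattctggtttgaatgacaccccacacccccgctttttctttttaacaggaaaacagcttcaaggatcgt
Cd274: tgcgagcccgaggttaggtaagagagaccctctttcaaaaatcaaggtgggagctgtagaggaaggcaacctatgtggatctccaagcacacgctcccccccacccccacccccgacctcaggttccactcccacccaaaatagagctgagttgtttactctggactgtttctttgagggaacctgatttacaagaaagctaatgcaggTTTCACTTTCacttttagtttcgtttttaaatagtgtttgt
In the *Pdcd1lg2* window, a STAT6-type pattern (TTC and GAA with any 4 bases between) began 82 bases before the start, a motif held by 5.89% of 21770 promoters of protein-coding genes. The capitals further upstream, 244 bases before the start, match an NF-κB-type pattern (GGG and CC with any 5 bases between) on both strands, which 47.8% of promoters hold. In the *Cd274* window, an interferon-response pattern (GAAA and GAAA with any 2 bases between) lay on the reverse strand with its match 41 bases before the start, and 3.32% of promoters hold it. The marked matches do not overlap one another. For *Cd80* the canonical start lies downstream of the first annotated one, so that all 250 bases of its window fall within the gene, as do 4 bases of the *Cd86* window. Of the other 6 genes, *Cd80* and *Havcr2* had the AP-1 pattern TGANTCA (6.17% of promoters), and *Cd80*, *Cd86*, *Cd40* and *Icosl* had the NF-κB-type pattern, and none had the STAT6-type or the interferon-response letters in the same window. The ATF4-type letters TGATGNAA (3.39% of promoters), TGACGTCA (1.69%), TTCNNNGAA (7.7%) and TATAAA (11.9%) were in none of the 8 windows. These matches describe the letters in the windows, and no binding was measured.

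The libraries held from 16238727 to 26725278 reads assigned to genes, with a median of 18999998. Values below are CPM, that is, reads of a gene scaled to library size, after TMM normalization, and changes are log2 fold changes with their SE from edgeR's quasi-likelihood test over all 24 libraries, with *P* values adjusted over the 13679 genes. A gene is said to rise or fall where the adjusted *P* is under 0.05. With an inhibitor, this is against the parallel IL-4/IL-13 libraries unless another group is named. The inhibitor was given before the cytokines, so no sequence in time is meant. Replicates are different mice. These are levels in bulk RNA, in which fewer expressing cells and less RNA per cell cannot be told apart. Protein and its display on the cell surface were not measured in these libraries.

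The cells had the markers of macrophages: all 7 macrophage markers examined (among them *Csf1r*, *Adgre1* and *Lyz2*) were present in every group, summing to between 8721 CPM and 36302 CPM per library. The summed level was 30582 to 36302 CPM in naive cells, 11370 to 13771 CPM with IL-4/IL-13 and 8721 to 9537 CPM in set A. The 6 T cell and 5 B cell markers each summed to at most 3.24 CPM. The 7 dendritic cell markers, whose owners also display several of the 8 molecules, summed to 8.37 to 12.8 CPM in naive libraries, 10.5 to 11.7 CPM with IL-4/IL-13, 1.64 to 2.5 CPM with tunicamycin and 2.07 to 4.96 CPM in the other inhibitor groups. *Xcr1* or *Cd209a*, or both, stood at 0 in all 4 libraries of every group but set A. The 6 neutrophil markers summed to 38.3 to 74 CPM in naive cells, 22.3 to 40.6 CPM with IL-4/IL-13, 0.0567 to 0.286 CPM with tunicamycin, 4.72 to 8.21 CPM with Sal003, 18.8 to 24.5 CPM in set B and 2.65 to 4.66 CPM in set A. The 5 fibroblast markers varied between mice within each group, from 18.4 to 139 CPM in naive libraries. The part of these other cells in the changes described here was not tested.

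IL-4/IL-13 separated the PD-1 ligands from the rest of the group: *Pdcd1lg2* and *Cd274* rose and the other 6 genes fell. Of the 8 genes, 2 rose, beside 30.1% of all genes tested, 6 fell, beside 30.4%, and 3 passed 2.5-fold in either direction, beside 11.5%. The median change of the 8 was -0.89 on the log2 scale, against -0.02 for all genes tested. In each of the 8 genes the IL-4/IL-13 and the naive libraries did not overlap, which was so in 49.7% of all genes tested.

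*Pdcd1lg2* was close to silent in naive BMDM, at 1.22, 0.739, 0.912 and 0.745 CPM in mice 1, 2, 4 and 5, which correspond to 13 to 25 reads per library. With IL-4/IL-13 it reached 60.1, 56.9, 66.8 and 61.4 CPM in the same mice. The cytokines therefore raised it 66.9-fold (log2 fold change 6.06, SE 0.11, adjusted *P* = 1.5e-23). With tunicamycin the level was below the naive one: the 4 libraries held 7 to 10 reads of the gene, or 0.359, 0.476, 0.567 and 0.5095 CPM. That is 127-fold below IL-4/IL-13 alone (-6.99, SE 0.12, adjusted *P* = 1e-24) and, against naive cells, 1.9-fold below (-0.93, SE 0.25, adjusted *P* = 0.0017). The small difference from naive cells was no longer called without mouse 1 (-0.59, adjusted *P* = 0.1).

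The other inhibitors left *Pdcd1lg2* within a narrow range of its cytokine-induced level. With Sal003 the 4 mice had 70, 64.5, 71 and 69.55 CPM, in set A 53.8, 55.7, 57 and 48.7 CPM, and in set B 74.8, 70.3, 65.9 and 63.6 CPM. Each of these groups overlapped the IL-4/IL-13 libraries. The fitted changes were 0.17 (SE 0.06, 95% interval 0.04 to 0.29, adjusted *P* = 0.027) with Sal003, -0.19 (SE 0.06, -0.32 to -0.06, adjusted *P* = 0.01) in set A and 0.16 (SE 0.06, 0.04 to 0.29, adjusted *P* = 0.029) in set B. With the mouse as a block all 3 passed, at adjusted *P* = 0.017, 0.0062 and 0.018 in the same order. With each mouse left out in turn, the changes kept their sign, at 0.14 to 0.20, -0.24 to -0.15 and 0.09 to 0.23. The calls did not hold in all of these smaller fits. The Sal003 call was lost without mouse 1 (0.14, adjusted *P* = 0.13), 2 (0.16, 0.061) or 5 (0.16, 0.095), the set A call without mouse 4 (-0.17, 0.051) or 5 (-0.15, 0.084), and the set B call without mouse 1 (0.09, 0.3) or 2 (0.12, 0.17). DESeq2 gave adjusted *P* = 0.071 with Sal003 and 0.082 in set B, and upper-quartile normalization 0.074 and 0.11. The set B call was also lost without a filter on low counts and when only the compared groups were fitted (adjusted *P* = 0.064 in both). Between the oligomycin sets, *Pdcd1lg2* was lower in set A, by 0.35 on the log2 scale (-0.35, SE 0.06, adjusted *P* = 5.5e-05), without overlap.

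Beside *Pdcd1lg2*, a reference list was taken of 7 genes known to respond to IL-4 (*Arg1*, *Ccl22*, *Chil3*, *Egr2*, *Irf4*, *Mgl2* and *Retnla*), all of which rose with IL-4/IL-13. All 7 fell in each of the 4 inhibitor groups. Under Sal003 their median change was -1.79 and the member that fell least fell by 0.70. For the oligomycin sets the medians were -1.97 (A) and -1.73 (B), and the smallest falls 1.38 and 0.62. The list was drawn up with the study and earlier results in view, so its direction is not independent evidence. A reference list of 7 genes of the integrated stress response (among them *Atf4*, *Asns* and *Trib3*) moved the other way: 7 rose with tunicamycin, 5 with Sal003 and 7 in each oligomycin set, and none fell, whereas 4 rose and 2 fell with IL-4/IL-13 alone. Of all genes tested, 38.7% rose and 37.6% fell with tunicamycin, 25.9% and 24.6% with Sal003, 34% and 32.2% in set A, and 27.9% and 26.4% in set B. The direction of this list is not independent evidence either, because the study had named its genes. Between the oligomycin sets, with changes given as A over B, 6 of these 7 stress response genes were higher and none was lower (median 1.10), whereas 1 of the 7 IL-4 genes was higher and 6 were lower (median -1.11). All genes tested had a median of 0.00 there, with 19.9% higher and 21.3% lower. The sets were not assigned to a treatment from measured values.

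**Figure D1:**
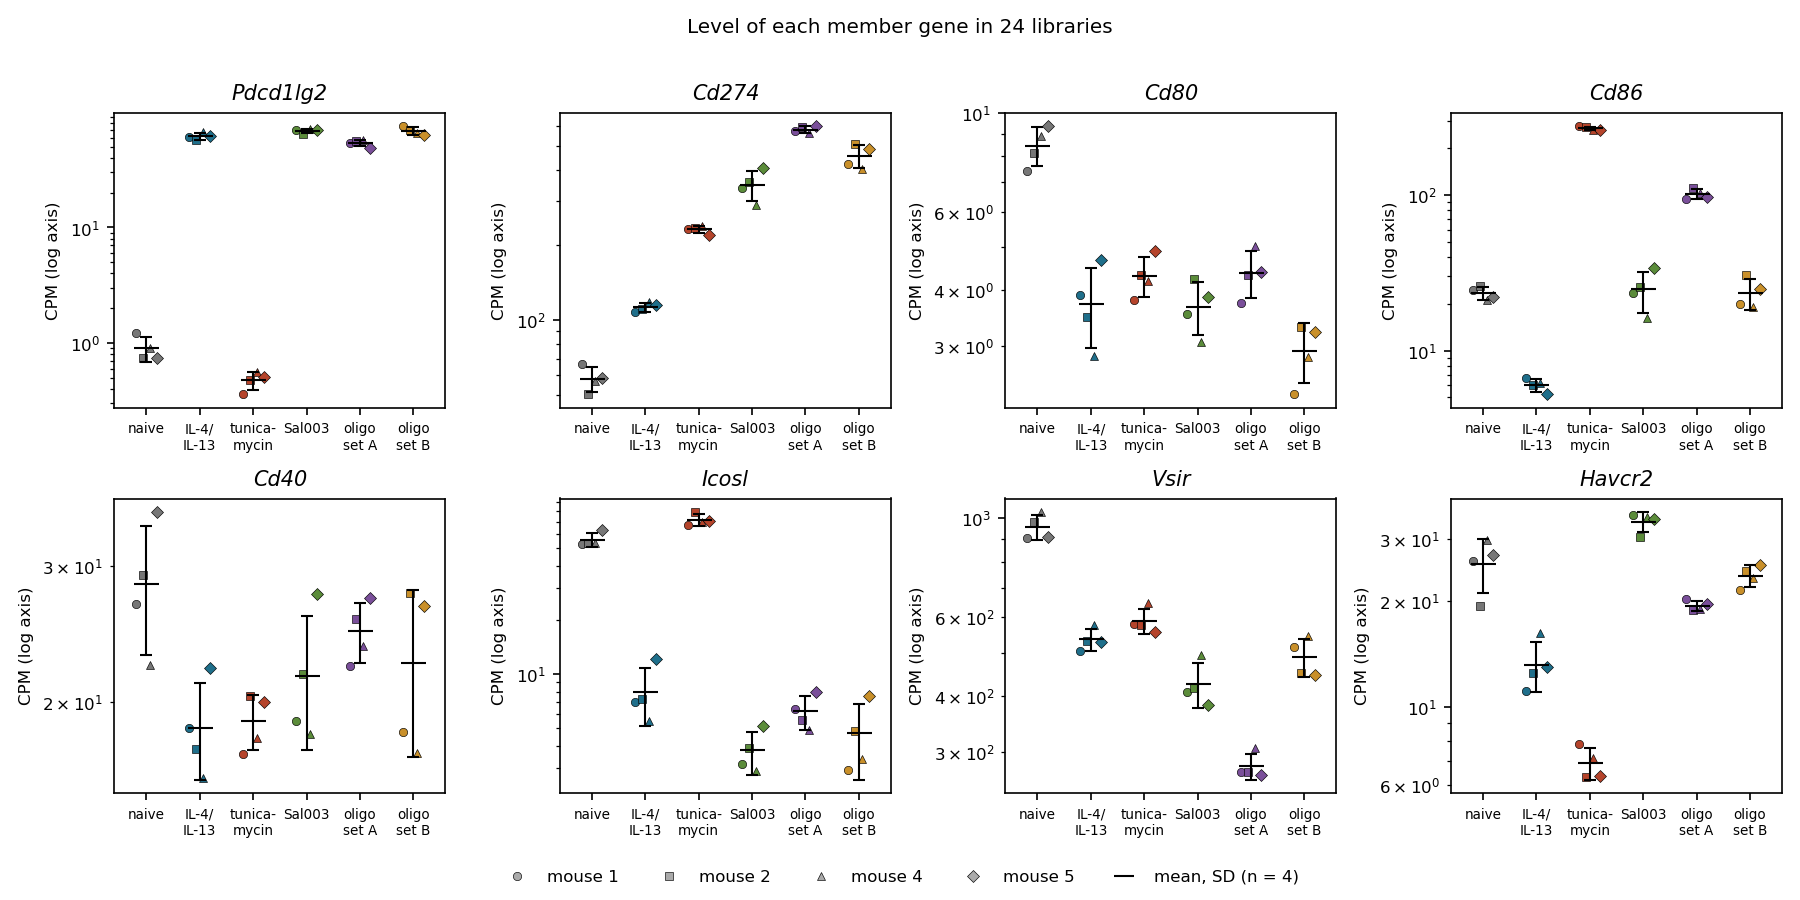
Level of each of the 8 genes in CPM (log axis, a separate scale per panel) in 24 libraries, with symbols for mice and a bar for the mean and SD of 4 libraries in each group. *Pdcd1lg2* lies between 0.359 and 1.22 CPM in naive and tunicamycin libraries and between 48.7 and 74.8 CPM in the other groups, whereas *Cd274* is lowest in naive libraries and highest in oligomycin set A.

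*Cd274* rose with the cytokines and rose further with every inhibitor. Naive libraries had 66.5, 50.4, 56.9 and 58.8 CPM in mice 1, 2, 4 and 5, and IL-4/IL-13 libraries had 108, 111, 118.5 and 114 CPM, a 1.94-fold rise (0.95, SE 0.09, adjusted *P* = 7.1e-10). Tunicamycin, with which *Pdcd1lg2* was lowest, raised *Cd274* to 233, 235, 238 and 220 CPM (1.04, SE 0.08, adjusted *P* = 3.9e-11). Sal003 gave 339, 357.5, 290 and 406 CPM (1.63, SE 0.09, adjusted *P* = 6.3e-14). The highest levels were those with oligomycin, at 570.1, 591, 559 and 597 CPM in set A (2.36, SE 0.09, adjusted *P* = 1.4e-17) and 423, 507, 404 and 484 CPM in set B (2.01, SE 0.09, adjusted *P* = 1.1e-15). The order of the means was therefore set A, set B, Sal003, tunicamycin, IL-4/IL-13, naive, and each neighbour in it differed from the next at adjusted *P* between 3.9e-11 and 0.0016. Among these neighbours, libraries overlapped between set B and Sal003 alone (0.38, 95% interval 0.21 to 0.55, set B higher). About 19.6% of the exon bases of *Cd274* are overlapped by genes on the opposite strand (*Plgrkt* and *Gm36043*), and whether counting used strand is not given in the sources used here.

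Per length of transcript, the RNA balance of the PD-1 ligand genes differed widely between groups. Levels were set on a scale of reads per exon base with the same total in every library, as TPM is. On it, *Pdcd1lg2* and *Cd274* were at 123 ± 7.45 and 126 ± 4.11 (SD, n = 4) with IL-4/IL-13, and at 1.93 ± 0.544 and 69.3 ± 11.1 in naive cells. The ratio of *Pdcd1lg2* to *Cd274* was 0.92 to 1.01 in the 4 IL-4/IL-13 libraries. It was 0.0227 to 0.0328 in naive, 0.00276 to 0.00426 in tunicamycin, 0.306 to 0.437 in Sal003, 0.146 to 0.182 in set A and 0.235 to 0.317 in set B libraries. The RNA of both ligands was thus at near equal levels in the IL-4/IL-13 libraries, and the ratio in every other group was below theirs. With the longest transcript as the length, the mean log2 ratio in IL-4/IL-13 libraries was 0.06 in place of -0.04, so which of the 2 was higher there is not settled.

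**Figure D2:**
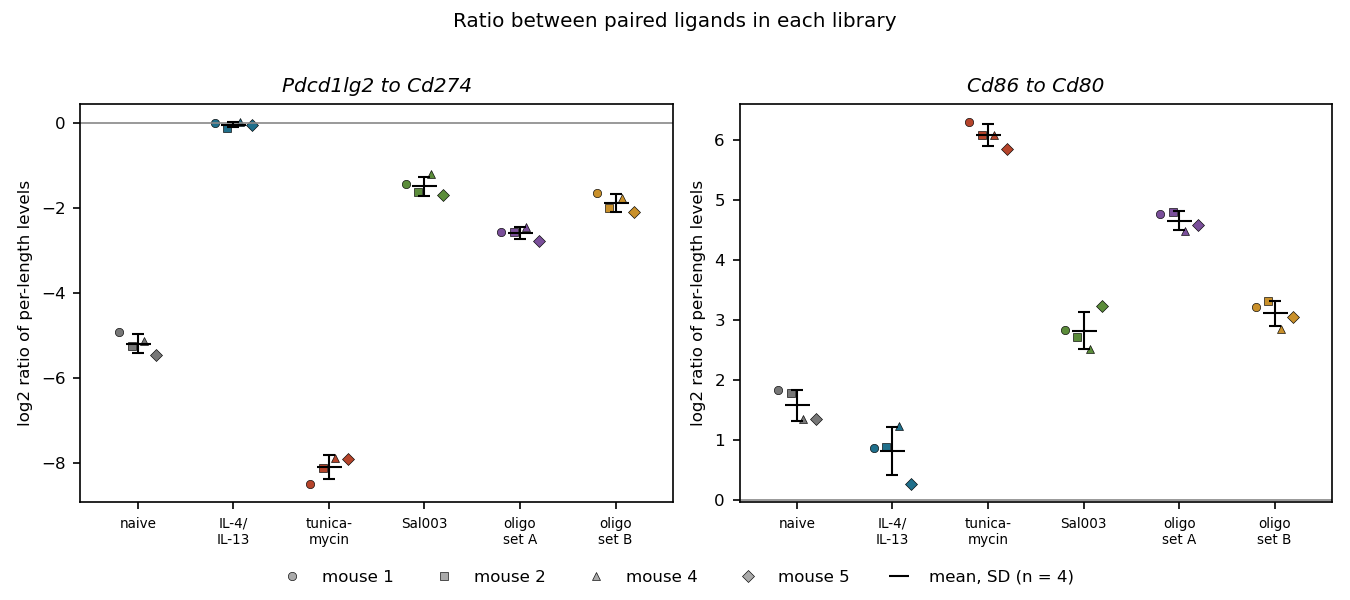
Log2 ratio of per-length levels in each library, *Pdcd1lg2* to *Cd274* (left) and *Cd86* to *Cd80* (right), with symbols for mice and bars for the mean and SD of 4 libraries. The *Pdcd1lg2* to *Cd274* ratio is -0.04 ± 0.06 with IL-4/IL-13 and -8.10 ± 0.29 with tunicamycin, and the *Cd86* to *Cd80* ratio is 0.81 ± 0.40 and 6.07 ± 0.18 in the same groups.

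From around the PD-1 ligand genes, 4 protein-coding neighbours were listed, and other genes of the region, such as *Gm36043*, were not. These 4 changed by less than *Pdcd1lg2* in the IL-4/IL-13 and tunicamycin comparisons, but not always by less than *Cd274*. *Jak2*, the kinase gene upstream of the pair, rose with IL-4/IL-13 (1.13, SE 0.08, adjusted *P* = 1.6e-11, beside 0.95 for *Cd274*), and so did *Plgrkt* (0.22, SE 0.07, adjusted *P* = 0.006) and *Ric1* (0.70, SE 0.08, adjusted *P* = 2.6e-08). *Ermp1* was at 33.5 CPM against 33.1 CPM (0.02, adjusted *P* = 0.89). With tunicamycin, *Jak2* rose by 0.40 (SE 0.08), whereas *Plgrkt* (-0.21, SE 0.06), *Ric1* (-0.20, SE 0.08) and *Ermp1* (-1.23, SE 0.11) fell. The 6.99 by which *Pdcd1lg2* fell was thus larger than any of the 4 neighbours' changes. Across the tunicamycin, Sal003 and oligomycin comparisons against IL-4/IL-13, *Jak2* changed by 0.25 to 0.40, *Ric1* by -0.20 to 0.63, *Plgrkt* by -0.21 to 0.45 and *Ermp1* by -1.23 to -0.37. *Cd274* changed by 1.04 to 2.36 in the same comparisons. With Sal003 and oligomycin, where *Pdcd1lg2* changed by -0.19 to 0.17, *Jak2*, *Ric1* and *Ermp1* each changed by more than it did.

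**Figure D3:**
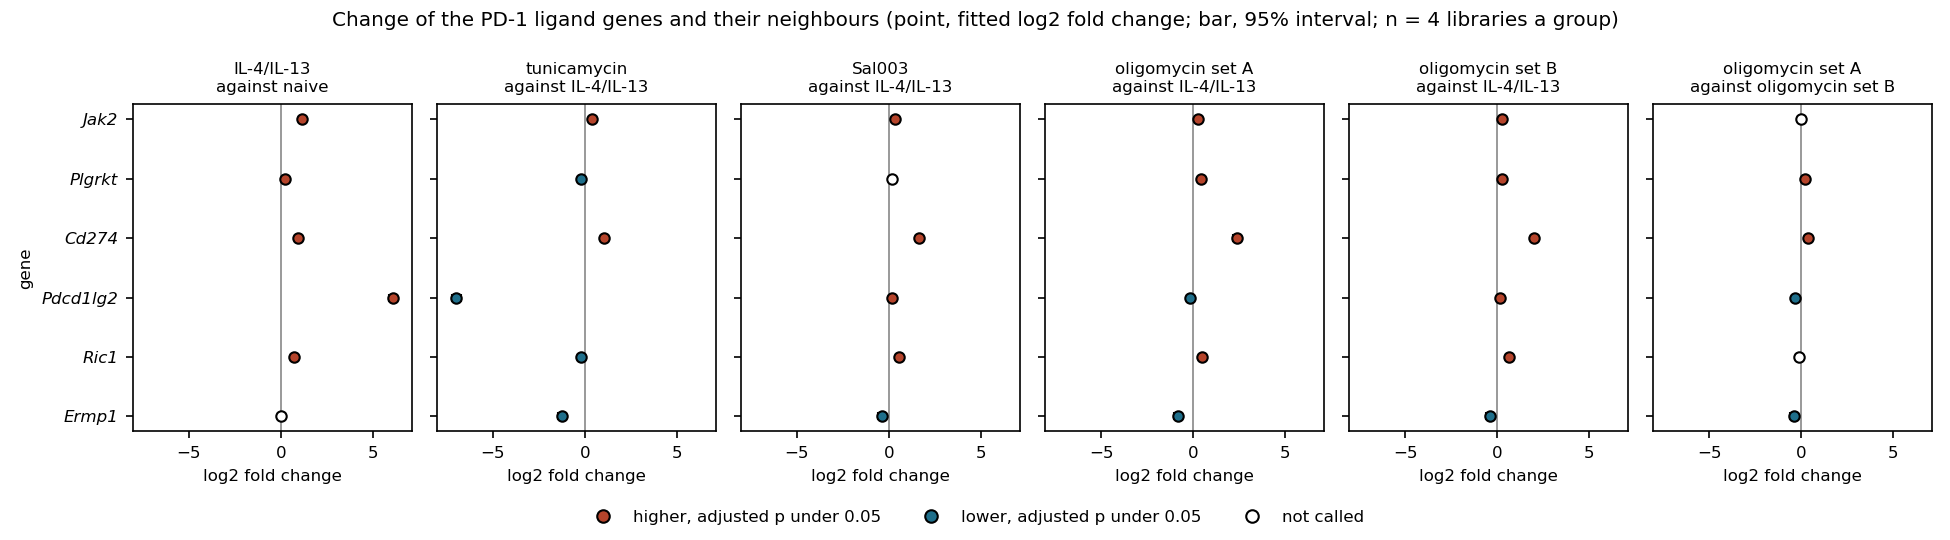
Fitted log2 fold change (points) with its 95% interval (bars, mostly within the points) for *Jak2*, *Plgrkt*, *Cd274*, *Pdcd1lg2*, *Ric1* and *Ermp1*, listed in their order along the chromosome, in 6 comparisons of 4 against 4 libraries. *Pdcd1lg2* moves by 6.06 and -6.99 in the first 2 panels, where the 4 neighbours stay between -1.23 and 1.13.

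Under tunicamycin, 3 of the 8 genes rose (*Cd274*, *Cd86* and *Icosl*), beside 38.7% of all genes, 2 fell (*Pdcd1lg2* and *Havcr2*), beside 37.6%, and 3 passed 2.5-fold, beside 22.6%. With Sal003, 4 rose, beside 25.9%, 2 fell, beside 24.6%, and 3 passed 2.5-fold, beside 7.71%. In set A, 4 rose, beside 34%, 2 fell, beside 32.2%, and 2 passed 2.5-fold, beside 12.7%. In set B, 4 rose, beside 27.9%, 1 fell, beside 26.4%, and 2 passed 2.5-fold, beside 7.96%. *Cd274* and *Cd86* were called higher in all 4 comparisons, which share the IL-4/IL-13 libraries, as were 12.8% of all genes tested. The count in set B depended on the fit. In either direction 5 of the 8 genes were called, beside 54.3% of all genes. With the mouse as a block all 8 were, beside 57.5%, and 3 were when only the compared groups were fitted, beside 57.8%. Without mouse 1 the count was 3, beside 45.5%, without mouse 2 it was 3, beside 52.1%, without mouse 4 it was 7, beside 48.7%, and without mouse 5 it was 5, beside 47.6%.

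**Figure D4:**
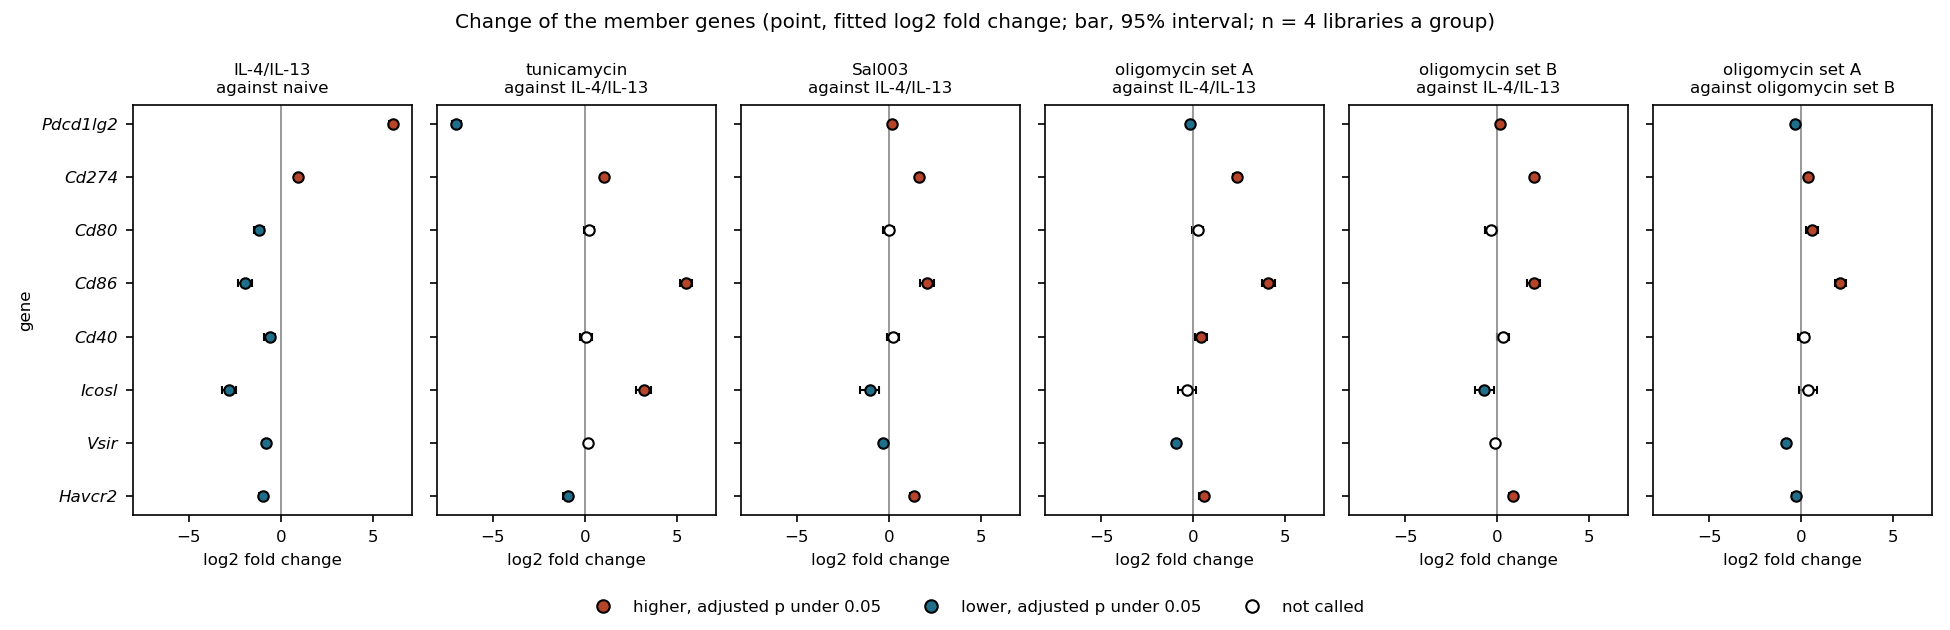
Fitted log2 fold change of the 8 genes (points) with its 95% interval (bars) in 6 comparisons of 4 against 4 libraries, filled red where higher and blue where lower at an adjusted *P* under 0.05, and open where not called. *Cd86* moves from -1.96 with IL-4/IL-13 to between 1.97 and 5.48 in the inhibitor comparisons, while *Cd80* and *Cd40* stay between -0.34 and 0.42 there.

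*Cd86*, on the reverse strand of chromosome 16 (36424044 to 36486443), showed the widest range among the costimulatory ligands. It fell 3.88-fold with IL-4/IL-13, from 24.5, 26, 21 and 22.3 CPM in mice 1, 2, 4 and 5 to 6.63, 6, 6.21 and 5.22 CPM (-1.96, SE 0.18, adjusted *P* = 5.5e-10). Tunicamycin raised it 44.6-fold over the cytokines alone, to 277.5, 273, 263.5 and 263 CPM (5.48, SE 0.17, adjusted *P* = 8.9e-20). This was 11.5-fold above the naive level as well (3.52, SE 0.14, adjusted *P* = 3.3e-17). Oligomycin set A gave 94.8, 111.5, 104 and 98 CPM (4.08, SE 0.17, adjusted *P* = 1e-16), also above naive cells (2.12, SE 0.14, adjusted *P* = 9.4e-13). With Sal003 and in set B, *Cd86* was at about its naive level. Sal003 libraries had 23.3, 25.8, 16.25 and 33.9 CPM (2.04 against IL-4/IL-13, SE 0.18, adjusted *P* = 4.7e-10), and set B libraries had 20.1, 30.7, 19 and 24.7 CPM (1.97, SE 0.18, adjusted *P* = 7.4e-10). Against naive cells the differences were 0.09 (95% interval -0.22 to 0.39) and 0.02 (-0.29 to 0.32), neither of them called, and both changed sign when single mice were left out. Mouse 4 was the lowest and mouse 5 or 2 the highest in both groups. The order of levels was tunicamycin, set A, Sal003, set B, naive, IL-4/IL-13, with called steps everywhere but among Sal003, set B and naive cells.

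*Cd86* also gave the largest difference among the 8 genes between the oligomycin sets. It was 4.31-fold higher in set A than in set B (2.11, SE 0.14, adjusted *P* = 1e-11), with no overlap. In this comparison 3 of the 8 genes were higher in set A (*Cd86*, *Cd274* and *Cd80*), beside 19.9% of all genes, 3 were lower (*Pdcd1lg2*, *Vsir* and *Havcr2*), beside 21.3%, and *Cd86* alone passed 2.5-fold, beside 2.62%.

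*Cd80*, on the same chromosome (38275923 to 38316697, forward strand), was expressed at a few CPM and did not follow *Cd86*. It fell with IL-4/IL-13, from 7.42, 8.13, 8.9 and 9.34 CPM to 3.9, 3.48, 2.84 and 4.67 CPM (-1.19, SE 0.14, adjusted *P* = 3.8e-08). With every inhibitor it was below the naive level as well. All 20 cytokine-treated libraries lay between 2.33 and 5.03 CPM, below the lowest naive one. The change against IL-4/IL-13 was 0.22 (95% interval -0.08 to 0.51) with tunicamycin, -0.01 (-0.32 to 0.29) with Sal003, 0.24 (-0.06 to 0.53) in set A and -0.34 (-0.65 to -0.03, adjusted *P* = 0.062) in set B, none of them called. With the mouse as a block, the set B difference passed the test (-0.34, adjusted *P* = 0.033), as it did without mouse 4 (-0.43, 0.036), with upper-quartile normalization (-0.39, 0.036) and with at least 10 counts in every library (-0.36, 0.044). In the order of levels only the step from naive cells down to set A was called, and the cytokine-treated groups were not told apart from their neighbours. *Cd80* was higher in set A than in set B (0.57, SE 0.15, adjusted *P* = 0.0026). Genes on the opposite strand overlap 6.68% of its exon bases.

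The RNA balance of the CD28 ligand genes moved with *Cd86*. Per length, the ratio of *Cd86* to *Cd80* was 1.2 to 2.35 in IL-4/IL-13 libraries and 2.53 to 3.54 in naive ones. It was 57.6 to 78.4 with tunicamycin, 22.2 to 27.7 in set A, 5.7 to 9.43 with Sal003 and 7.21 to 9.98 in set B. Every library with an inhibitor was above every library without one.

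*Icosl* (chromosome 10, 77905136 to 77919747), encoding the ligand of ICOS, was the gene that IL-4/IL-13 lowered most among the 8. Naive libraries had 53, 53.7, 53.1 and 62.9 CPM and IL-4/IL-13 libraries 7.02, 7.26, 5.53 and 12.1 CPM, a 7.05-fold fall (-2.82, SE 0.19, adjusted *P* = 3.2e-12). Tunicamycin reversed this, to 67.3, 79.4, 69.4 and 70.5 CPM (3.18, SE 0.19, adjusted *P* = 9.3e-14). The tunicamycin libraries all lay above the naive ones, by a narrow margin (0.36, SE 0.16, adjusted *P* = 0.04) that was not called without mouse 1 (0.41, 0.073), 2 (0.29, 0.19) or 4 (0.36, 0.074), by DESeq2 (0.37, 0.16), with upper-quartile normalization (0.29, 0.098) or with at least 10 counts in every library (0.31, 0.077). Sal003 lowered *Icosl* further, to 3.17, 3.89, 2.89 and 5.15 CPM (-1.06, SE 0.25, adjusted *P* = 0.0011). Set B had 2.92, 4.85, 3.39 and 7.59 CPM (-0.70, SE 0.24, adjusted *P* = 0.016), which overlapped IL-4/IL-13 and was not called without mouse 1 (-0.60, 0.092) or 2 (-0.73, 0.059), or when only these groups were fitted (-0.73, 0.054). Set A had 6.39, 5.6, 4.87 and 7.99 CPM (-0.34, 95% interval -0.82 to 0.13, not called). In IL-4/IL-13, Sal003, set A and set B libraries, mouse 5 was the highest and mouse 4 was the lowest or next to lowest. These 4 groups followed naive cells in the order IL-4/IL-13, set A, set B, Sal003, with no called step between neighbours. Without mouse 5, set A was above set B (0.60, adjusted *P* = 0.0074, against 0.35, 0.27 with all mice).

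*Icosl* was thus high in the groups in which *Pdcd1lg2* was low. Over the 24 libraries their log2 levels had Pearson's r = -0.97, the strongest relation among the 8 genes. The libraries fall into separate clusters and share mice and treatments, so this describes the groups and has no test. The next strongest was that of *Cd274* and *Vsir* (r = -0.87). The paired ligands themselves had r = 0.55 (*Pdcd1lg2* and *Cd274*) and 0.10 (*Cd80* and *Cd86*).

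*Cd40* (chromosome 2, 164897544 to 164914868), the receptor for the T cell ligand CD40L, moved least. It fell with IL-4/IL-13, from 22.4 to 35.3 CPM in naive libraries to 16 to 22.2 CPM (-0.62, SE 0.15, adjusted *P* = 0.0011). With inhibitors it stayed between 17.2 and 27.7 CPM. It rose in set A (0.42, SE 0.15, adjusted *P* = 0.019), a call lost without mouse 2 (0.38, 0.097). The other changes against IL-4/IL-13 were 0.03 (95% interval -0.29 to 0.36) with tunicamycin, 0.23 (-0.09 to 0.55) with Sal003 and 0.29 (-0.03 to 0.61) in set B, not called. The sign with tunicamycin turned with upper-quartile normalization (-0.02), with at least 10 counts in every library (-0.01) and without mouse 2 (-0.03) or 4 (-0.01). With the mouse as a block, the Sal003 (0.22, adjusted *P* = 0.043) and set B (0.27, adjusted *P* = 0.012) differences passed the test, the latter also without a filter on low counts (0.29, 0.046). No neighbouring groups in its order of levels (naive, set A, set B, Sal003, tunicamycin, IL-4/IL-13) differed in a called way.

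*Vsir* (chromosome 10, 60182630 to 60208463), encoding the inhibitory molecule VISTA, was the most abundant of the 8 in naive cells, at 922 ± 54 (SD, n = 4) per length, and fell in every other group. Naive libraries had 902 to 1034 CPM and IL-4/IL-13 libraries 505 to 578 CPM (-0.83, SE 0.08, adjusted *P* = 6.8e-10). It was lowest in set A, at 271, 270, 306 and 266 CPM (-0.95 against IL-4/IL-13, SE 0.08, adjusted *P* = 6.2e-11), where no library overlapped any other group. Sal003 lowered it less, to 381 to 494 CPM (-0.33, SE 0.08, adjusted *P* = 0.00064). Tunicamycin (557 to 645 CPM, 0.14, 95% interval -0.02 to 0.29) and set B (447 to 544 CPM, -0.13, -0.29 to 0.02) were not called. With the mouse as a block both passed, at adjusted *P* = 0.0077 and 0.012, and without mouse 4 they passed as well (0.13, 0.042 and -0.15, 0.036). Tunicamycin also passed without a filter on low counts (0.18, 0.028) and set B with upper-quartile normalization (-0.18, 0.039). The order of levels was naive, tunicamycin, IL-4/IL-13, set B, Sal003, set A, and its first and last steps were called. Set A and set B differed by 0.81 on the log2 scale (-0.81, SE 0.08, adjusted *P* = 4.2e-09). Per length, the level of *Cd274* was above that of *Vsir* in set A, at 725 ± 32.8 against 283 ± 14.1. In set B the mean of *Cd274* was higher (517 ± 59.5 against 452 ± 41.5), but in mouse 4 *Cd274* was lower (456 against 501). With Sal003 the means were close (385 ± 54.6 and 382 ± 40.4). There *Cd274* was lower in mouse 4 (316 against 438) and higher in the other mice, most in mouse 5 (448 against 343).

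*Havcr2* (chromosome 11, 46345673 to 46374149), encoding the inhibitory receptor TIM-3, separated tunicamycin from the other inhibitors. It fell with IL-4/IL-13, from 26, 19.3, 29.7 and 27 CPM in mice 1, 2, 4 and 5 to 11.1, 12.5, 16.2 and 13 CPM (-0.95, SE 0.11, adjusted *P* = 3.2e-08). Tunicamycin lowered it further, to 7.86, 6.33, 7.15 and 6.37 CPM (-0.93, SE 0.12, adjusted *P* = 2.2e-07). It rose with the other inhibitors. Sal003 libraries had 35, 30.3, 34.65 and 34.2 CPM (1.35, SE 0.11, adjusted *P* = 1.1e-10), above all naive libraries (0.40, SE 0.10, adjusted *P* = 0.0014). Set A libraries had 20.2, 18.8, 19 and 19.6 CPM (0.56, SE 0.11, adjusted *P* = 8.7e-05) and set B libraries 21.4, 24.3, 23.2 and 25.3 CPM (0.84, SE 0.11, adjusted *P* = 4e-07). Set A was below set B (-0.28, SE 0.10, adjusted *P* = 0.031), a call lost without mouse 4 (-0.28, 0.057) or 5 (-0.25, 0.17) and with upper-quartile normalization (-0.25, 0.051). Set B was not called against naive cells (-0.11, 95% interval -0.32 to 0.10), but was without mouse 2 (-0.24, adjusted *P* = 0.038). The order of levels was Sal003, naive, set B, set A, IL-4/IL-13, tunicamycin, in which naive and set B alone were not told apart.

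The inhibitors were next compared with naive cells and with each other. Against naive cells, 3 genes were higher and 5 lower with tunicamycin, beside 77.6% of all genes called in either direction, 3 and 4 with Sal003, beside 62.5%, 3 and 4 in set A, beside 71%, and 2 and 3 in set B, beside 63.8%. *Cd40* was not called in set A (-0.20, adjusted *P* = 0.22) or set B (-0.33, adjusted *P* = 0.054) against naive cells. The set A difference passed with the mouse as a block (-0.19, 0.042). The set B difference passed with the block (-0.34, 0.0011), by DESeq2 (-0.34, 0.049), with upper-quartile normalization (-0.40, 0.026), without a filter on low counts (-0.31, 0.018) and with at least 10 counts in every library (-0.36, 0.038). The Sal003 call of *Cd40* (-0.39, SE 0.15, adjusted *P* = 0.026) was lost without mouse 1 (-0.36, 0.1) or 2 (-0.38, 0.083) and when only these groups were fitted (-0.40, 0.052).

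Tunicamycin differed from Sal003 in 6 of the 8 genes, beside 71.9% of all genes, from set A in 7, beside 63.5%, and from set B in 7, beside 71.1%. In all 3 comparisons *Pdcd1lg2* was over 100-fold lower with tunicamycin, with log2 changes of -7.16, -6.80 and -7.15 (SE 0.12 each). *Cd86* was 10.8-fold, 2.64-fold and 11.4-fold higher, *Icosl* 18.9-fold, 11.5-fold and 14.7-fold higher, and *Havcr2* 4.85-fold, 2.8-fold and 3.41-fold lower. *Cd274* was lower with tunicamycin in all 3, by 1.51-fold, 2.5-fold and 1.96-fold. The *Cd40* difference from set A (-0.39, SE 0.15, adjusted *P* = 0.031) was lost without mouse 1 (-0.35, 0.11) or 2 (-0.41, 0.074), and the one from set B (-0.26, adjusted *P* = 0.14) passed only with the block (-0.24, 0.019).

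Sal003 differed from set A in 6 genes, beside 51.5% of all genes, and from set B in 2, beside 18.5%. Against set B, *Cd274* was lower with Sal003 (-0.38, SE 0.08, adjusted *P* = 0.0016) and *Havcr2* higher (0.51, SE 0.10, adjusted *P* = 0.00075). For the rest the 95% intervals were -0.12 to 0.13 for *Pdcd1lg2*, -0.23 to 0.37 for *Cd86*, 0.01 to 0.63 for *Cd80*, -0.38 to 0.25 for *Cd40*, -0.92 to 0.20 for *Icosl* and -0.36 to -0.05 for *Vsir*. *Vsir* passed the test with the block (-0.21, adjusted *P* = 0.0016) and without mouse 4 (-0.23, 0.011). Against set A, *Cd86* was 4.1-fold lower with Sal003 (-2.04, SE 0.14, adjusted *P* = 7.7e-12). The *Icosl* difference from set A (-0.71, SE 0.26, adjusted *P* = 0.024) was lost without mouse 1 (-0.63, 0.11) or 2 (-0.78, 0.068).

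Other molecules of the same contacts were examined as lists, beside the same counts for all genes given above. Of 8 tested ligands and receptors of the TNF superfamily, 6 fell with IL-4/IL-13 and none rose (median -1.26), among them *Tnfsf14* (LIGHT, -2.81, SE 0.32, adjusted *P* = 2.5e-08) and *Tnfsf15* (-1.77, SE 0.24, adjusted *P* = 4e-07). With tunicamycin 3 of the 8 rose and 2 fell. *Tnfsf9*, encoding the 4-1BB ligand, rose from 2.34 to 16.2 CPM (2.81, SE 0.21, adjusted *P* = 6.9e-12), and *Tnfsf13b*, encoding BAFF, fell from 2.75 to 0.709 CPM (-1.93, SE 0.23, adjusted *P* = 3.5e-08). With Sal003 2 rose and 4 fell, in set A 1 and 3, and in set B 1 and 1.

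Of 3 tested B7 relatives, 1 rose and 1 fell with IL-4/IL-13. *Cd276*, encoding B7-H3, rose (1.09, SE 0.15, adjusted *P* = 1.1e-06). Against IL-4/IL-13 alone it was lower with tunicamycin (-2.04, SE 0.17) and Sal003 (-1.81, SE 0.17), and in set A (-0.91, SE 0.15) and set B (-0.95, SE 0.15). All 3 fell with tunicamycin, and 2 of 3 in each of the other inhibitor groups. In the nectin family, *Nectin1* rose with IL-4/IL-13 from 16.4 to 30.5 CPM (0.89, SE 0.12) and fell to between 2.24 and 6.83 CPM with the inhibitors. *Pvr*, encoding the ligand of TIGIT and CD226, moved the other way. It fell with IL-4/IL-13 (-0.70, SE 0.06) and rose with tunicamycin (1.94, SE 0.06), in oligomycin set A (1.75, SE 0.06) and in set B (1.26, SE 0.06). Of the 3 nectin-family genes tested, 1 (*Pvr*) rose and 2 (*Nectin1* and *Nectin2*) fell in every inhibitor comparison, that with Sal003 included.

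Downstream of CD40, all 14 listed signalling genes were tested. With IL-4/IL-13 3 rose and 8 fell, with tunicamycin 7 and 6, with Sal003 1 and 10, in set A 2 and 6 and in set B 1 and 8. The adaptor gene *Traf5* rose with IL-4/IL-13 (1.76, SE 0.06) and fell with tunicamycin (-3.41, SE 0.07) and in set A (-1.38, SE 0.06). Its mean in set B was also lower, at 39 CPM against 60.4 CPM with IL-4/IL-13. *Birc3*, encoding a ubiquitin ligase of this pathway, rose with tunicamycin (1.47, SE 0.05) and fell with Sal003 (-0.60, SE 0.05). Median changes of this list stayed between -0.29 and 0.09 in the 5 comparisons.

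Among 5 listed genes linked to PD-1 or to its ligands, 1 rose and 4 fell with IL-4/IL-13. *Ptpn6*, encoding the phosphatase SHP-1, fell with IL-4/IL-13 (-1.33, SE 0.05) and rose with tunicamycin (1.22, SE 0.05). It rose less with Sal003 (0.35, SE 0.05), fell further in set A (-0.64, SE 0.05) and was not called in set B. *Cmtm6*, whose product stabilizes PD-L1, fell in set A (-0.50, SE 0.05, adjusted *P* = 4.6e-10) while *Cd274* was at its highest there. *Rgmb*, encoding a binding partner of PD-L2, rose with Sal003 (0.57, SE 0.06) and set B (0.51, SE 0.06) and fell with tunicamycin (-0.59, SE 0.07). For the list, 1 rose and 3 fell with tunicamycin, 2 and 2 with Sal003, 1 and 2 in set A, and 1 and 1 in set B.

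Of 7 tested TIM relatives and ligands, 2 rose and 1 fell with IL-4/IL-13. *Lgals9*, encoding galectin-9, a TIM-3 ligand, fell with IL-4/IL-13 from 161 to 44.8 CPM (-1.84, SE 0.14, adjusted *P* = 1.8e-11). It rose with Sal003 (2.25, SE 0.14), in set A (1.62, SE 0.14) and in set B (2.05, SE 0.14), the groups in which *Havcr2* also rose. *Selplg*, encoding the VISTA partner PSGL-1, rose with IL-4/IL-13 (0.63, SE 0.06) and fell with tunicamycin (-2.53, SE 0.06), in set A (-1.72, SE 0.06) and in set B (-0.75, SE 0.06). In the list, 2 rose and 3 fell with tunicamycin, 3 and 2 with Sal003, 3 and 3 in set A and 2 and 3 in set B. Of 10 tested genes of adhesion and inhibitory pairs, 3 rose and 5 fell with IL-4/IL-13, 7 and 2 with tunicamycin, 5 and 3 with Sal003, 4 and 4 in set A and 3 and 3 in set B. *Cd24a* rose with the cytokines (1.99, SE 0.10). It fell with tunicamycin (-1.11, SE 0.10), Sal003 (-2.14, SE 0.11), set A (-1.89, SE 0.10) and set B (-1.93, SE 0.10).

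Receptors usually found on T cells were largely absent, and 4 of the 9 listed were tested. *Cd28* was at 94.8 CPM in naive cells and fell to 10.7 CPM with IL-4/IL-13 (-3.15, SE 0.09, adjusted *P* = 1.3e-19). Every inhibitor group was above IL-4/IL-13 alone. *Cd28* was at 26.1 CPM with tunicamycin (1.29, SE 0.10), 58.4 CPM with Sal003 (2.45, SE 0.09), 76 CPM in set A (2.83, SE 0.09) and 58.1 CPM in set B (2.44, SE 0.09). *Lag3* rose with the cytokines from 1 to 5.64 CPM (2.47, SE 0.27) and fell in each inhibitor group. The T cell markers summed to at most 2.25 CPM in these libraries, far below the *Cd28* level.

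The genes whose levels over the 24 libraries were most like each of the 8 were named by Pearson's r of log2 CPM, as a description. For *Pdcd1lg2* they were *Slc7a2* (r = 0.998), an arginine transporter gene, *Lipn* (0.994) and *Atp6v0d2* (0.991), and for *Cd274* they were *Lrp12* (0.985), *Kmt5a* (0.985) and *Pdp1* (0.979). *Cd86* was most like *Casp4* (0.977), *Icosl* like *Arhgap27* (0.980), *Vsir* like *Itgam* (0.972), an integrin gene of myeloid cells, and *Havcr2* like *Hs2st1* (0.975). The r stayed at 0.937 or above for each of these over the 20 cytokine-treated libraries alone. A gene on the same strand (*Gm49368*) overlaps 67.4% of the exon bases of *Itgam*, so its counted level may be partial. The closest genes were less alike for *Cd80* (*Ermardl1*, 0.931, and 0.737 without the naive libraries) and for *Cd40* (*Il27*, 0.845 and 0.754). The points share mice and treatments.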

How the data were processed

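RNA-seq was performed on BMDM of 4 mice in 6 groups. Per the labels and the study's methods, the authors used cutadapt 1.8 for trimming, filtered out ribosomal RNA and reads of low complexity, mapped the rest to GRCm39 (STAR 2.7) and summarized each gene's reads by htseq-count (HTSeq 0.9.1), and they deposited these raw read counts. A second deposited table, of TPM from RSEM 1.2.31, was not used here, because its header names do not match its columns. Whether counting used strand is not given in the sources used here. Totals of reads on no gene (12.7 to 15.2% per library) were left out.

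Counts were fitted in R 4.3.3 with edgeR 4.0.16 (TMM normalization, filterByExpr, glmQLFit and glmQLFTest) in 1 model over 24 libraries, with Benjamini-Hochberg adjustment over 13679 genes. The study's methods used DESeq2, which was run as an alternative (1.42.0). The other alternatives were upper-quartile normalization, other filters, a fit of only the compared groups, a 2-fold threshold, the mouse as a block, leaving out each mouse, and the longest transcript as length. Equal mouse numbers mark the same animal by title, and deviations from group means correlated at a median of 0.24 within a mouse (above 0.1 in 56 of 60 pairs) and -0.054 between mice. Replicates differed by more than counting noise (chi-square per gene 2.19 to 35.9), so none was merged. Per-length levels used exon unions of GENCODE M39, in which 56323 of 56884 identifiers were found, and the motif search used the same annotation. Coordinates are GRCm39.

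The members and gene lists were chosen with earlier results of these data known. All members and the 4 neighbours are named. From each other list, up to 2 called genes with the largest change and a mean of at least 1 CPM could be named per comparison. *Ddit3* was left out because 2 identifiers carry the symbol. No protein sequence was used here.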

Additional observations from a re-analysis of the deposited data

Results flagged for a closer look

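In 48 sets of 4 libraries (8 genes in 6 groups), 2 held a library whose gap to the nearest other library was above Dixon's 95% critical value as a share of the whole range. Chance gives about 1 such set in 20. *Icosl* in naive mouse 5 was at 62.9 CPM, with the other naive libraries at 53 to 53.7 CPM (gap 0.932 of the range). *Vsir* in oligomycin set A mouse 4 was at 306 CPM, with the others at 266 to 271 CPM (gap 0.882 of the range). When each mouse in turn was left out of all groups, *Icosl* stayed lower with IL-4/IL-13 than in naive cells and *Vsir* stayed lower in set A than with IL-4/IL-13.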

How the results depend on the processing

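Counts of the 8 genes called depended on the processing most in oligomycin set B against IL-4/IL-13: 5 as reported (beside 54.3% of all genes tested), 3 when only the compared groups were fitted (57.8%), 8 with the mouse as a replicate block (57.5%), and 3 to 7 when each mouse was left out (45.5 to 52.1%). In Sal003 against naive, 5 genes passed 2-fold (beside 16.3% of all genes) in place of 3 at 2.5-fold (10.7%). Changes of sign were all of differences that were not called. *Cd40* with tunicamycin against IL-4/IL-13 was -0.02 with upper-quartile normalization, -0.01 with at least 10 counts in every library and -0.03 to 0.13 with a mouse left out. *Cd86* in set B against naive was -0.05, -0.01 and -0.08 to 0.10 under the same 3 alternatives. *Cd80* with tunicamycin against set A was 0.02 without a filter on low counts and -0.05 to 0.06 with a mouse left out. With a mouse left out, the other ranges across 0 were -0.12 to 0.08 (*Cd80*, Sal003 against IL-4/IL-13), -0.12 to 0.19 (*Cd86*, Sal003 against naive), and, for Sal003 against set B, -0.03 to 0.04 (*Pdcd1lg2*), -0.09 to 0.20 (*Cd86*) and -0.10 to 0.04 (*Cd40*). The log2 ratio of *Pdcd1lg2* to *Cd274* with IL-4/IL-13 was 0.06 with the longest transcript. Over the 6 main comparisons, 434 of the members' values under an alternative kept their direction and side of the threshold, 14 passed it newly, 20 no longer passed it and 6 changed sign; for the 9 others these numbers were 675, 10, 14 and 12. The mouse block changed only calls named in the report. The causes of these shifts were not tested. *Pdcd1lg2* at 7 to 25 reads per naive or tunicamycin library limits its precision there, and it was not tested where at least 10 counts were required in every library.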
